A study of Mus musculus with 6 samples.

Results

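The core circadian clock was followed through the brown adipose tissue of mice on an obesogenic diet, with and without an inhibitor of the protease BACE1. The 10 genes described were chosen by name from the textbook clock loop, with earlier results of these data known, and not by a threshold on any value. They are Arntl (also called Bmal1), Clock and Npas2 of the positive limb, and Per1, Per2, Per3, Cry1, Cry2, Nr1d1 and Nr1d2 of the negative limb. All 10 were found among the 45320 Ensembl identifiers of the expression tables. Since the choice was made with results in view, the comparisons of these genes below are descriptions.

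The treated C57BL/6 mice were put on a fat- and sugar-rich diet when 4 weeks old, and after 4 weeks of it RO5508887, a small-molecule BACE1 inhibitor, was added to the food (samples 17, 33 and 35). The untreated mice had the same strain, age and diet history and went on without the compound (samples 13, 14 and 15). No group on ordinary chow was used here, so every library comes from a mouse fed the rich diet. The sources used here do not give dose, length of treatment, sex or the hour at which tissue was taken. Whole brown adipose tissue was used, so each value is a sum over all cell types in the depot, and fewer cells of a type and less RNA per cell cannot be told apart.

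The clock is a feedback loop of transcription. BMAL1, the product of Arntl, pairs with CLOCK or its paralog NPAS2 and switches on genes that carry E-boxes, among them the Per, Cry and Nr1d genes. The PER and CRY proteins return to the nucleus and repress BMAL1 and CLOCK, while the nuclear receptors REV-ERB alpha and beta, the products of Nr1d1 and Nr1d2, repress Arntl through response elements that the activating ROR receptors also bind. As a result Arntl and Npas2 transcripts peak near the time of day at which Nr1d1, Per and Dbp transcripts are low, and the balance of the limbs in a tissue depends on the hour of sampling. In mouse brown fat the clock runs daily, and REV-ERB alpha is known to repress Ucp1, the gene of the heat-producing uncoupling protein.

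Letter matches to control sequences of the loop were found close to several of these transcription starts. Promoters came from RefSeq (build GRCm38.p6), in windows from 250 bases before to 50 bases after each start, and 9 of the 10 genes matched. Per2 did not. Motifs were searched on both strands: the E-box CACGTG, its variant CACGTT, the D-box TTATGNAA bound by the DBP family, and TAGGTNA, a core of the ROR and REV-ERB element whose form was chosen with the Arntl promoter known. Of the 32851 promoter windows in the table, 7.15% held the E-box, 4.68% the variant, 3.38% the D-box and 8.29% the ROR core. The promoters of Arntl, Nr1d1 and Per1 are shown because they carry motifs through which the limbs act on each other or on themselves. Per3 is shown for its D-boxes, motifs of the DBP family, which is in neither limb as defined here. Cry1 is shown because its transcript did not follow the other E-box genes. Each match is in capitals in the 5 promoters below. They lie at chr7:113207261-113207560 (+ strand) for Arntl, chr11:98775328-98775627 (- strand) for Nr1d1, chr11:69098699-69098998 (+ strand) for Per1, chr4:151044616-151044915 (- strand) for Per3 and chr10:85185005-85185304 (- strand) for Cry1.
Arntl: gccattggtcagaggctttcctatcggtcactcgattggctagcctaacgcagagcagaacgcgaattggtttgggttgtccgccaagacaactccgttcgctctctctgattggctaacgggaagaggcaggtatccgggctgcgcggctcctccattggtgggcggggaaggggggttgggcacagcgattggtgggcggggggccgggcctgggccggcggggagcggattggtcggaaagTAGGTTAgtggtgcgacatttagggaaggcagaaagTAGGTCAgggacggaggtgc
Nr1d1: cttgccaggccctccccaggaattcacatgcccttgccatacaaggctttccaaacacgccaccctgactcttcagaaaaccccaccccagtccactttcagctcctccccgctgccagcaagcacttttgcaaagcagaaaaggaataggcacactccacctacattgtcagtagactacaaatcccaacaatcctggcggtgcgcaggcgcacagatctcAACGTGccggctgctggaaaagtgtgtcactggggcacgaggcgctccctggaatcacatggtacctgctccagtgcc
Per1: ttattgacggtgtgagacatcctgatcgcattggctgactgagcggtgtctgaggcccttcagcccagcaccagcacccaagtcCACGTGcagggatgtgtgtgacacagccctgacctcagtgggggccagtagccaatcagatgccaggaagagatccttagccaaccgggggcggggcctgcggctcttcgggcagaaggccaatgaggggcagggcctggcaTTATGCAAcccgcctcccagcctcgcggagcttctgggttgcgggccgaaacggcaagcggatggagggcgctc
Per3: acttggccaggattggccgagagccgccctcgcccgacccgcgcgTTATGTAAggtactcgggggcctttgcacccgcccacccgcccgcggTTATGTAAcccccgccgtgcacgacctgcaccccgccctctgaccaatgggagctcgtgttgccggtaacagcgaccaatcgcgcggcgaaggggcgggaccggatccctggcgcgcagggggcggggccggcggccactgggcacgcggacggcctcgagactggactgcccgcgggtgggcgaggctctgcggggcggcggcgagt
Cry1: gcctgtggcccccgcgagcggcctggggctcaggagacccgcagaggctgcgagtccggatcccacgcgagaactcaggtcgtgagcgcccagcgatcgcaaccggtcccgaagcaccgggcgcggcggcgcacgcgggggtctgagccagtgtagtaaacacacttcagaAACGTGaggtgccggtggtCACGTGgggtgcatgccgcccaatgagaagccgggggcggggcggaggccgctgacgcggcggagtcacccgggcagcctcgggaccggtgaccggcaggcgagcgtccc

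In the second of 2 overlapping Arntl windows, the ROR core was found at 6 bases before the start (TAGGTTA) and again as TAGGTCA at position 31 after it. Nr1d1 held the E-box variant 28 bases before its start, read as AACGTG on the strand shown. Per1 held an E-box 166 bases and a D-box 24 bases before its start. Per3 held D-boxes at 205 and 158 bases before its start, and Cry1 an E-box 60 bases and the variant 79 bases before its start. Cry2 held the variant 166 bases before its start. In the windows of Clock (3 windows), Npas2 and Nr1d2 these letters were not found. A match is a run of letters and not evidence of binding in this tissue.

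Of the 6 deposited tables, those of samples 33 and 35 held the same value for each of the 45320 identifiers and entered as 1 library, treated 33/35. The comparison is therefore between 2 treated libraries and 3 untreated libraries. The labels do not say that samples came from separate animals, so p-values measure the spread between these libraries, which may be technical. Values are FPKM, read fragments scaled by transcript length and by the mapped total of the library. Read totals were not known, but steps between low values put the depths within 0.811 to 1.01 times that of untreated 13, and 20876 to 21726 genes had a value above 0 in each library. Brown fat markers were present in every library: of 10 markers at least 9 reached 1 FPKM, with summed levels of 6388 FPKM in treated 33/35 and 5497 FPKM in treated 17, against 7454, 2442 and 7204 FPKM in untreated 13, 14 and 15. Skeletal muscle RNA was also present and uneven. The 14 muscle markers summed to 5648 FPKM in treated 33/35 and 12862 FPKM in treated 17, against 155.3, 28746 and 142 FPKM in untreated 13, 14 and 15. Most of the sum in untreated 13 and 15 was Myl1 alone, at 119.5 and 116.7 FPKM. All 14 of 14 reached 1 FPKM in both treated libraries and untreated 14, and 9 of 14 did in untreated 13 and 15. None was at 0 in these 5 libraries. Markers of endothelium, macrophages and nerve varied less, from 143 to 185 FPKM, from 56.1 to 105 FPKM and from 72.6 to 214 FPKM in sum over 5 markers each, with 1 nerve marker, Th, at 0 in untreated 13 and 15.

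By their means, the positive limb and the negative limb stood opposite each other, and the 2 treated libraries lay at opposite ends. Treated 33/35 had the highest Arntl, Clock and Npas2 of the 5 libraries and the lowest Per2, Per3, Nr1d1 and Nr1d2. Treated 17 had the lowest Arntl and Npas2 and the highest Per1, Per2, Per3 and Cry2. The 3 untreated libraries lay between them for Arntl, Npas2, Per2 and Per3. Other members had other orders. Cry1, of the negative limb, was highest in treated 33/35, as the positive limb was. Clock and Per1 were lowest in untreated 14, Cry2 was lowest in untreated 13, and Nr1d1 and Nr1d2 were highest in untreated libraries. Over all 13527 genes tested (those with a mean of at least 1 FPKM), 21.1% were highest and 7.75% lowest in treated 33/35, and 5.74% were highest and 9.30% lowest in treated 17. Of the 10 clock genes, 9 passed that filter, also with any library left out, and Npas2 did not.

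**Figure D1:**
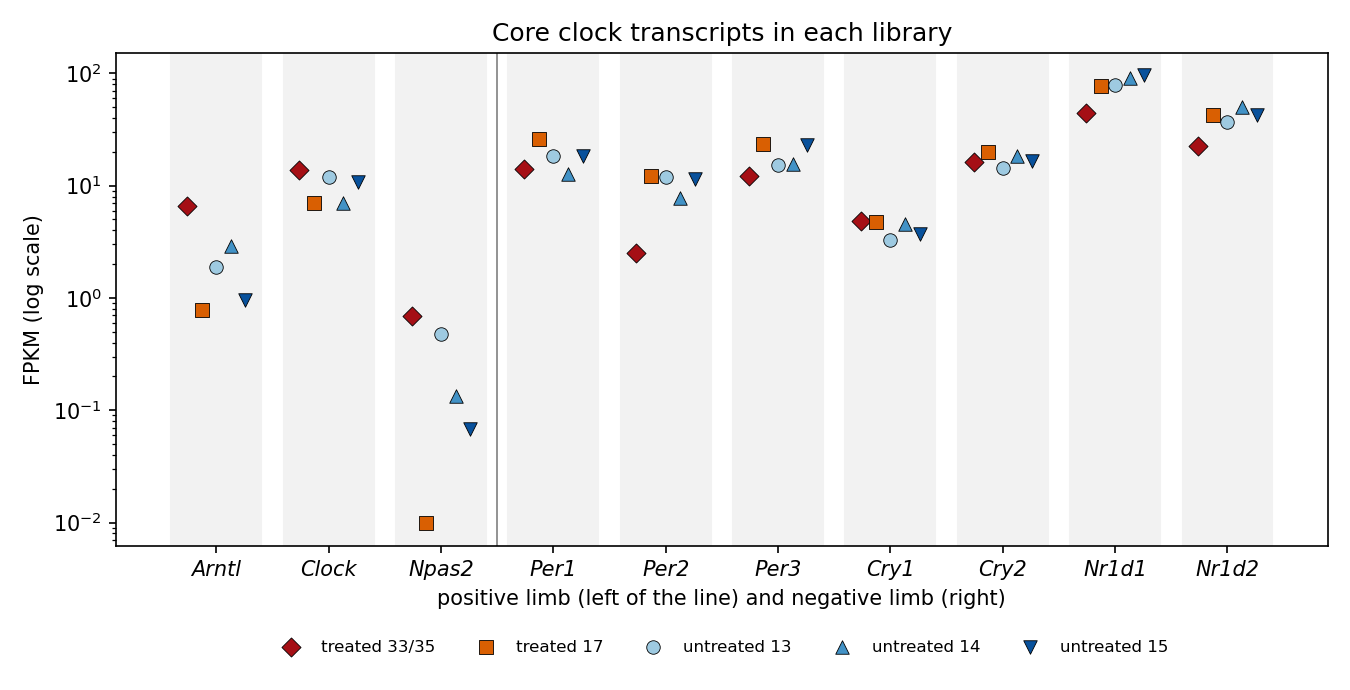
FPKM of the 10 core clock genes on a log axis, 1 point per library, treated libraries in red and orange and untreated ones in blue. Treated 33/35 (diamonds) tops the positive limb, with 6.62 FPKM for Arntl, and lies lowest for Per2 at 2.54 FPKM, while treated 17 (squares) lies at 0.789 and 12.3 FPKM for these genes.

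Arntl, on chromosome 7 (113207465 to 113314126, GRCm38), encodes the partner that every activating dimer of the clock needs. It measured 6.62 FPKM in treated 33/35, with 0.789 FPKM in treated 17, against 1.89, 2.89 and 0.958 FPKM in untreated 13, 14 and 15. The treated values were the highest and the lowest of the series, an 8.40-fold distance, and enclosed the untreated ones. On the log2(FPKM + 0.5) scale treated 33/35 lay 2.47 above treated 17, while the untreated libraries covered a range of 1.22. Of all genes tested, 0.784% had treated libraries at least as far apart.

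Clock (chromosome 5, 76209868 to 76304792) encodes the usual partner of BMAL1 and is known to cycle weakly in most tissues. It measured 13.9 FPKM in treated 33/35, with 6.996 FPKM in treated 17, against 12.0, 6.94 and 10.7 FPKM in untreated 13, 14 and 15. Treated 33/35 was highest, and treated 17 shared the low end with untreated 14, which are also the libraries with the most muscle marker RNA. The part of muscle RNA in this order was not tested.

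Npas2 (chromosome 1, 39193731 to 39363236) encodes a paralog of CLOCK that can replace it in peripheral tissues. Its transcript was scarce, at 0.696 FPKM in treated 33/35, with 0.00981 FPKM in treated 17, against 0.475, 0.135 and 0.0677 FPKM in untreated 13, 14 and 15. It was highest and lowest in the same libraries as Arntl, at levels where the added 0.5 FPKM compresses differences, and it entered no test.

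Per2 (chromosome 1, 91415982 to 91459324) encodes the PER protein on which the mouse rhythm depends most. It measured 2.54 FPKM in treated 33/35, with 12.3 FPKM in treated 17, against 12.0, 7.70 and 11.4 FPKM in untreated 13, 14 and 15. The low value in treated 33/35 stood apart from the other 4 libraries, and the high value in treated 17 was close to untreated 13. On the log2 scale the difference of treated 33/35 from treated 17 was -2.08, against an untreated range of 0.61, and 0.924% of genes tested were at least as far apart.

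Per1 (chromosome 11, 69095217 to 69109960) is both a clock repressor and an early response gene of cAMP and glucocorticoid signals. It measured 14.1 FPKM in treated 33/35, with 26.1 FPKM in treated 17, against 18.4, 12.6 and 18.5 FPKM in untreated 13, 14 and 15. Per3 (chromosome 4, 151003652 to 151044665), a PER paralog that mouse rhythms can do without, measured 12.2 FPKM in treated 33/35, with 23.4 FPKM in treated 17, against 15.2, 15.7 and 22.8 FPKM in the untreated libraries. Both were higher in treated 17 than in any other library, and treated 33/35 was lowest for Per3 and next to lowest for Per1. Per2 differed more between the treated libraries than its paralogs, so that the ratio of Per1 to Per2 was 5.55 in treated 33/35 and 2.12 in treated 17, against 1.54, 1.64 and 1.63 in untreated 13, 14 and 15.

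Nr1d1 (chromosome 11, 98767932 to 98775333) had the highest level of the 10 genes in each library. It measured 44.4 FPKM in treated 33/35, with 76.9 FPKM in treated 17, against 79.3, 91.0 and 95.9 FPKM in untreated 13, 14 and 15, and both treated values lay below all untreated ones. Its annotated exons share 263 bases, or 8.55% of their length, with Thra, the thyroid hormone receptor alpha gene on the opposite strand. The sources do not say that strand was used in counting, so reads from that stretch cannot be told apart. Thra measured 69.9 FPKM in treated 33/35, with 45.8 FPKM in treated 17, against 49.6, 44.0 and 55.7 FPKM in untreated 13, 14 and 15, and was highest where Nr1d1 was lowest.

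Nr1d2 (chromosome 14, 18204054 to 18239127), its paralog, measured 22.3 FPKM in treated 33/35, with 42.8 FPKM in treated 17, against 36.7, 49.8 and 42.5 FPKM in untreated 13, 14 and 15. Treated 33/35 was again lowest, and treated 17 lay within the untreated range. Both REV-ERB genes were lowest in treated 33/35, and for Nr1d2 the groups overlapped.

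Cry1 and Cry2 encode the strongest repressors of the loop and varied least. Cry1 (chromosome 10, 85131700 to 85185064) is known to peak later than the Per genes. It measured 4.82 FPKM in treated 33/35, with 4.74 FPKM in treated 17, against 3.27, 4.53 and 3.68 FPKM in untreated 13, 14 and 15. Both treated values lay above all untreated ones, by a small margin over untreated 14, and the treated libraries were 0.02 apart on the log2 scale. Cry2 (chromosome 2, 92403646 to 92434043) measured 16.3 FPKM in treated 33/35, with 20.0 FPKM in treated 17, against 14.5, 18.3 and 16.5 FPKM in untreated 13, 14 and 15, and the groups overlapped. An unnamed transcript on the opposite strand, D930015M05Rik, shares 4.67% of the Cry2 exon length and stayed between 0.599 and 1.27 FPKM.

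By mean level over the 5 libraries the order was Nr1d1 (77.5 FPKM), Nr1d2 (38.8 FPKM), Per1 (18.0 FPKM), Per3 (17.9 FPKM), Cry2 (17.1 FPKM), Clock (10.1 FPKM), Per2 (9.19 FPKM), Cry1 (4.21 FPKM), Arntl (2.63 FPKM) and Npas2 (0.277 FPKM). Each of Nr1d1, Nr1d2, Cry2 and Arntl was above the next gene in 5 of 5 libraries. The ranges were fully separate for Cry2 over Clock and for Arntl over Npas2. Per1, Per3 and Cry2 did not differ beyond their spread, with 3 of 5 libraries in that order for each step. Clock was above Per2 in 1 of 5 libraries, treated 33/35. Per2 was above Cry1, and Cry1 above Arntl, in 4 of 5 libraries, with treated 33/35 the exception in both.

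The limbs were then compared within each library. The positive limb was taken as the mean log2(FPKM + 0.5) of its 3 genes, the negative limb as that of its 7 genes, and the limb gap as positive minus negative limb, so a gap closer to 0 means relatively more positive limb RNA. The gap was -1.35 in treated 33/35 and -3.73 in treated 17, against -2.55, -2.88 and -3.29 in untreated 13, 14 and 15. The treated libraries were the extremes again, 2.38 apart, where the untreated ones covered 0.74. Relative to each gene's mean, the positive limb stood at 0.89 in treated 33/35 and -0.65 in treated 17, and the negative limb at -0.52 and 0.31. In untreated 13, 14 and 15 the positive limb stood at 0.20, -0.09 and -0.35, and the negative limb at -0.01, 0.03 and 0.18, so a higher positive limb went with a lower negative limb in the order of the libraries.

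**Figure D2:**
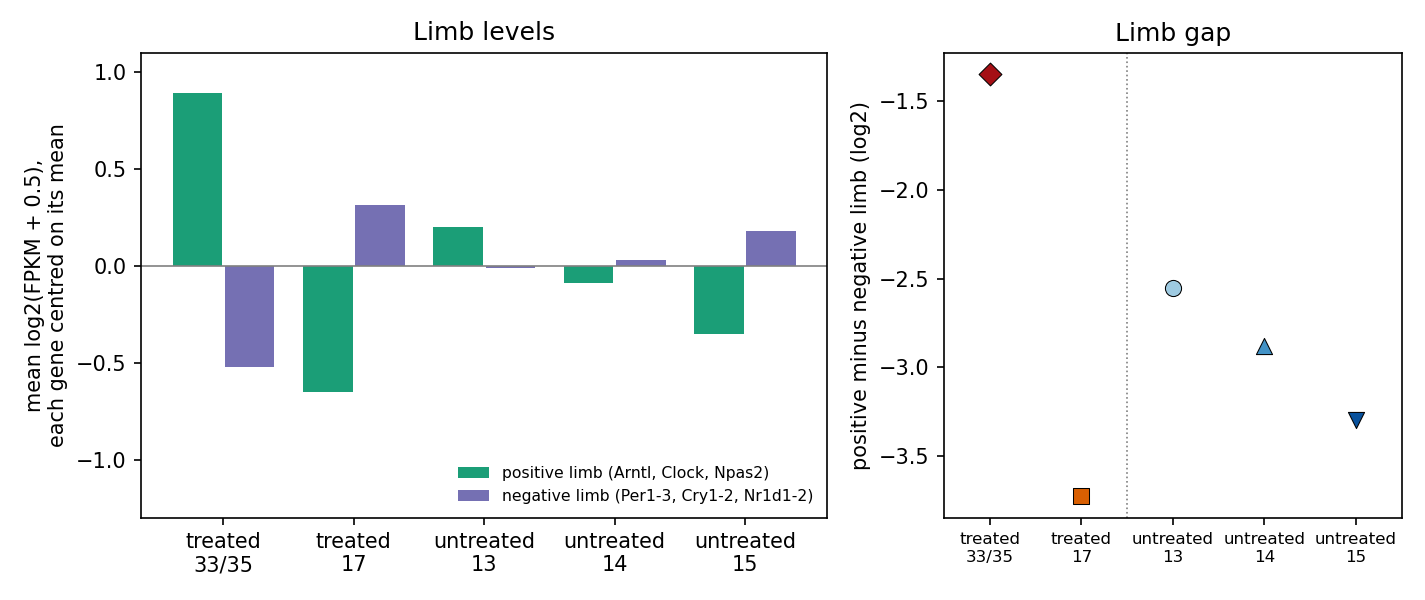
Left, the mean of each limb per library on the log2(FPKM + 0.5) scale after centring every gene on its mean; right, the limb gap (positive minus negative limb, not centred) per library. The gap is -1.35 in treated 33/35 and -3.73 in treated 17, and the untreated libraries lie between them from -3.29 to -2.55.

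Ratios within a library do not depend on how libraries are scaled, and set treated 33/35 apart at the low end. Nr1d1 was 6.70 times Arntl in treated 33/35 and 97.4 times in treated 17, against 41.9, 31.5 and 100.1 times in untreated 13, 14 and 15. Per2 was 0.383 times Arntl in treated 33/35 and 15.6 times in treated 17, against 6.33, 2.67 and 11.9 times in the untreated libraries. By the first ratio untreated 15 was highest, just above treated 17, and by the second treated 17 was highest. The hour of sampling was not given and its part in these differences was not tested. The muscle marker sums given above were highest in untreated 14, which had a gap of -2.88, and lowest in untreated 13 and 15, with gaps of -2.55 and -3.29, and their part in the limb gap was not tested.

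Treated and untreated libraries were then compared, with this spread between the treated libraries in view. In the comparison of 2 treated with 3 untreated libraries by limma across all genes, 0 of the 9 clock genes tested passed an adjusted p of 0.05, where 0.0444% of all genes tested did, and 0 had an unadjusted p under 0.05, where 0.924% did. The adjusted p was 1 for each. Among the 9 genes, 5 had higher and 4 lower treated means on the log2 scale, with a median log2 fold change of 0.04 beside 0.06 over all genes tested. Cry1 was the gene with both treated values above all untreated ones, a pattern seen in 5.50% of genes tested, and Nr1d1 the gene with both below, seen in 3.18%. For Arntl, Per2 and Per3, 3 of the 9, the lowest and the highest library were both treated, as for 3.64% of genes tested. In 7 of the 9, all but Cry1 and Cry2, the distance between the treated libraries exceeded the untreated range, as in 12.4% of genes tested. These shares describe the libraries, and the genes were not chosen independently of them.

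The fitted differences were small or rested on 1 treated library. Nr1d1 averaged 60.6 ± 23.0 FPKM (SD, n = 2) in treated and 88.7 ± 8.52 FPKM (SD, n = 3) in untreated libraries, a log2 fold change of -0.59 (SE 0.29). Without treated 33/35 it was -0.20, and without treated 17 it was -0.99. Per2 averaged 7.42 ± 6.91 FPKM (SD, n = 2) and 10.4 ± 2.33 FPKM (SD, n = 3), giving a log2 fold change of -0.78 (SE 0.66), which was 0.26 without treated 33/35 but -1.81 without treated 17. Arntl averaged 3.70 ± 4.12 FPKM (SD, n = 2) and 1.91 ± 0.964 FPKM (SD, n = 3), giving 0.41 (SE 0.84) for the log2 fold change. That value was -0.82 without treated 33/35 and 1.64 without treated 17, and -0.06 after quantile normalization.

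The remaining fold changes ranged from -0.46 (SE 0.33) for Nr1d2 to 0.30 (SE 0.18) for Cry1. Cry1 averaged 4.78 ± 0.0542 FPKM (SD, n = 2) in treated and 3.83 ± 0.642 FPKM (SD, n = 3) in untreated libraries, and its fold change stayed between 0.20 and 0.41 with each library left out in turn. Nr1d2 was at 0.0057 without treated 33/35 and at -0.92 without treated 17. Per1 had a log2 fold change of 0.23 (SE 0.34), Cry2 0.14 (SE 0.18), Clock 0.04 (SE 0.38) and Per3 -0.05 (SE 0.35). The signs of these 4 genes turned with 1 library left out: without treated 33/35 Clock was at -0.43 and Per3 at 0.41, and without treated 17 Per1 was at -0.20 and Cry2 at -0.0087. The limb gap averaged -2.54 ± 1.68 (SD, n = 2) in treated and -2.91 ± 0.372 (SD, n = 3) in untreated libraries, a difference of 0.37 that was -0.82 without treated 33/35 and 1.56 without treated 17.

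Between the treated libraries themselves there is 1 library on each side and no test. On the log2(FPKM + 0.5) scale, 1 clock gene of the 9, Arntl, was more than 2-fold higher in treated 33/35 than in treated 17, as were 1.26% of genes tested, and 1 gene, Per2, more than 2-fold lower, as were 3.25%. Nr1d2, Per3, Per1 and Nr1d1 followed with differences of -0.92, -0.91, -0.87 and -0.79, and Clock with 0.94. The median distance, sign aside, was 0.91 over the 9 genes and 0.18 over all genes tested.

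**Figure D3:**
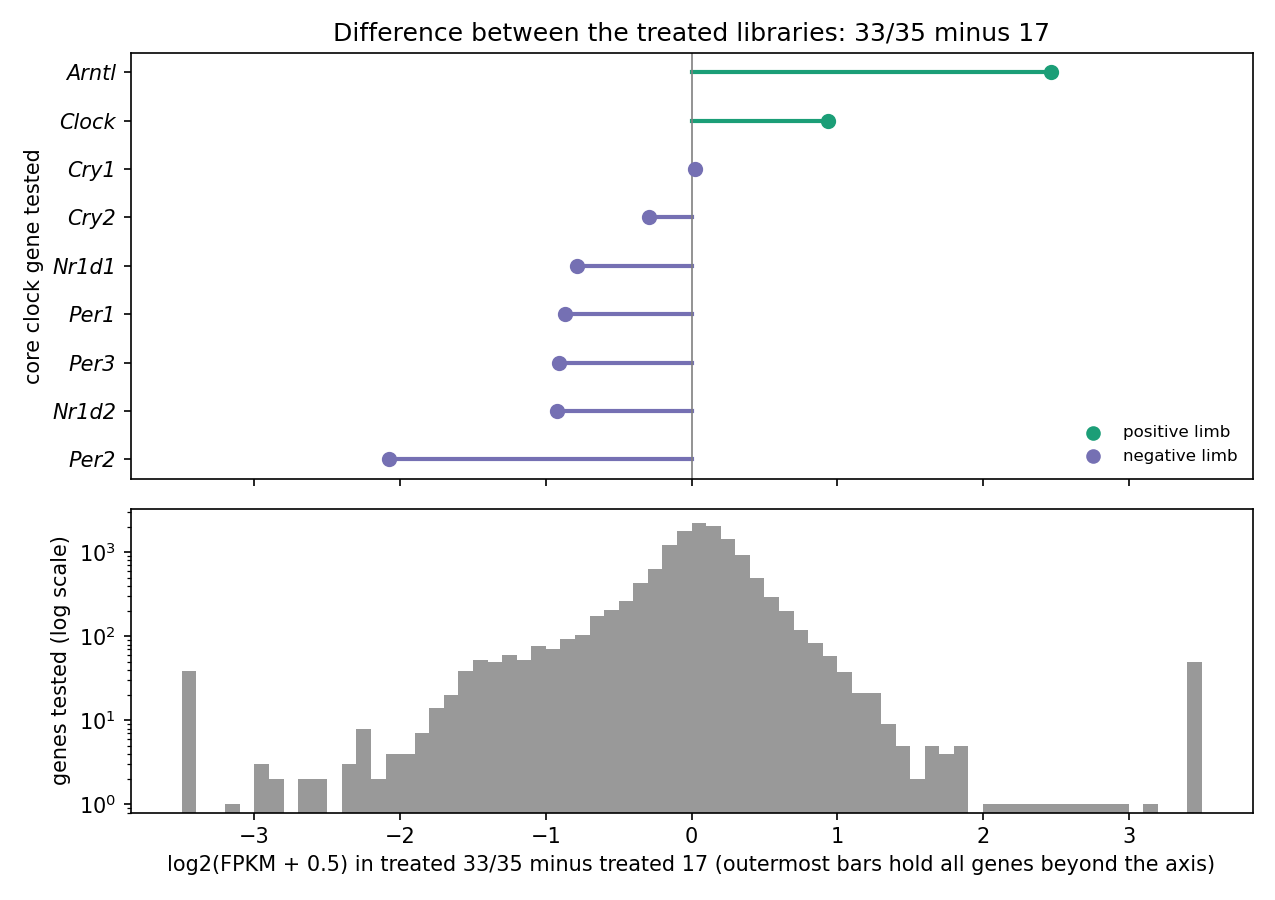
Top, the difference in log2(FPKM + 0.5) between treated 33/35 and treated 17 for the 9 core clock genes tested; bottom, the same difference for all 13527 genes tested, on a log count axis, with genes beyond the axis in the outermost bars. Arntl (2.47) and Per2 (-2.08) lie in the sparse tails, whereas Cry1 (0.02) lies at the centre.

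The rest of the pathway was read from lists of 30 regulators and outputs, of which 27 passed the filter. Of these 27, 0 passed the limma threshold over all genes in either direction, beside 0.0444% of all genes tested, and 0 had an unadjusted p under 0.05, beside 0.924%. In 19 the treated mean was higher on the log2 scale and in 8 lower, with a median log2 fold change of 0.06. That is near the background, since 8704 of all 13527 genes tested had a higher treated mean and their median was also 0.06. On the log2(FPKM + 0.5) scale, 6 of the 27 were more than 2-fold lower in treated 33/35 than in treated 17 (Dbp, Ciart, Usp2, Bhlhe41, Bhlhe40 and Tef), beside 3.25% of all genes tested, and 0 more than 2-fold higher, beside 1.26%. By plain FPKM, Wee1 was also past that line, 2.02-fold higher in treated 17, and Arntl2, a paralog of Arntl, was 2.10-fold higher in treated 33/35.

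Among the other loop factors and repressors, 8 of 9 were tested. Ciart, a repressor of CLOCK and BMAL1, measured 1.67 FPKM in treated 33/35, with 9.01 FPKM in treated 17, against 5.39, 3.62 and 9.34 FPKM in untreated 13, 14 and 15. Bhlhe41 (DEC2), which competes at E-boxes, measured 3.64 FPKM in treated 33/35, with 11.04 FPKM in treated 17, against 7.95, 12.9 and 6.87 FPKM in the untreated libraries. Both were lowest in treated 33/35. Timeless, the mammalian relative of the fly gene, had the smallest unadjusted p of the list and a difference of 0.36 on the log2 scale (SE 0.22; adjusted p = 1 by limma).

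Rora, which encodes a receptor that activates Arntl, had another order. It measured 5.95 FPKM in treated 33/35, with 7.16 FPKM in treated 17, against 4.21, 15.0 and 3.64 FPKM in untreated 13, 14 and 15. Untreated 14 was highest, the treated libraries came next and untreated 13 and 15 were lowest, which separates the libraries as the muscle marker sums do. Usp2, a deubiquitinase with clock partners, was also highest in untreated 14, with 13.2 FPKM in treated 33/35 and 40.1 FPKM in treated 17, against 8.16, 87.6 and 16.5 FPKM in untreated 13, 14 and 15. The part of muscle RNA in these values was not tested.

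The list of kinases and ubiquitin ligases that set the lifetime of PER and CRY also held the deubiquitinase Usp2. Over the 8 of 9 tested, the median distance between the treated libraries was 0.09, beside 0.18 over all genes tested. On that log2 scale 1 of the 8, Usp2, was more than 2-fold apart, and 0 of the 8 exceeded their untreated range, counts near the 4.52% and 12.4% of all genes tested. Csnk1d, a casein kinase that phosphorylates PER, measured 35.2 FPKM in treated 33/35, with 33.0 FPKM in treated 17, against 35.5, 25.7 and 33.1 FPKM in untreated 13, 14 and 15. Csnk1e, its paralog, measured 21.9 and 23.3 FPKM in treated 33/35 and 17, against 17.0, 21.9 and 16.6 FPKM in untreated 13, 14 and 15. Fbxw11, a ubiquitin ligase subunit, was lower in both treated libraries than in each untreated one, with a difference of -0.20 on the log2 scale (SE 0.15; adjusted p = 1 by limma).

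Among the 4 factors that bind D-boxes, Dbp and Tef had their lowest value in treated 33/35, as Per2 did. Dbp, an E-box target, measured 7.63 FPKM in treated 33/35, with 60.2 FPKM in treated 17, against 39.2, 62.3 and 40.03 FPKM in untreated 13, 14 and 15. Dbp was 1.15 times Arntl in treated 33/35 and 76.3 times in treated 17, against 20.7, 21.6 and 41.8 times in untreated 13, 14 and 15. Tef, a relative of Dbp, measured 50.5 and 113 FPKM in treated 33/35 and 17, against 72.8, 101 and 107 FPKM in the untreated libraries. Nfil3, which represses at the same D-boxes and is known to peak opposite to Dbp, was highest in treated 33/35, at 13.6 FPKM, with 10.5 FPKM in treated 17, against 12.1, 13.2 and 8.66 FPKM in untreated 13, 14 and 15. Hlf, the fourth of these factors, was highest in untreated 15 and lowest in untreated 14, so it did not share the order of Dbp and Tef.

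**Figure D4:**
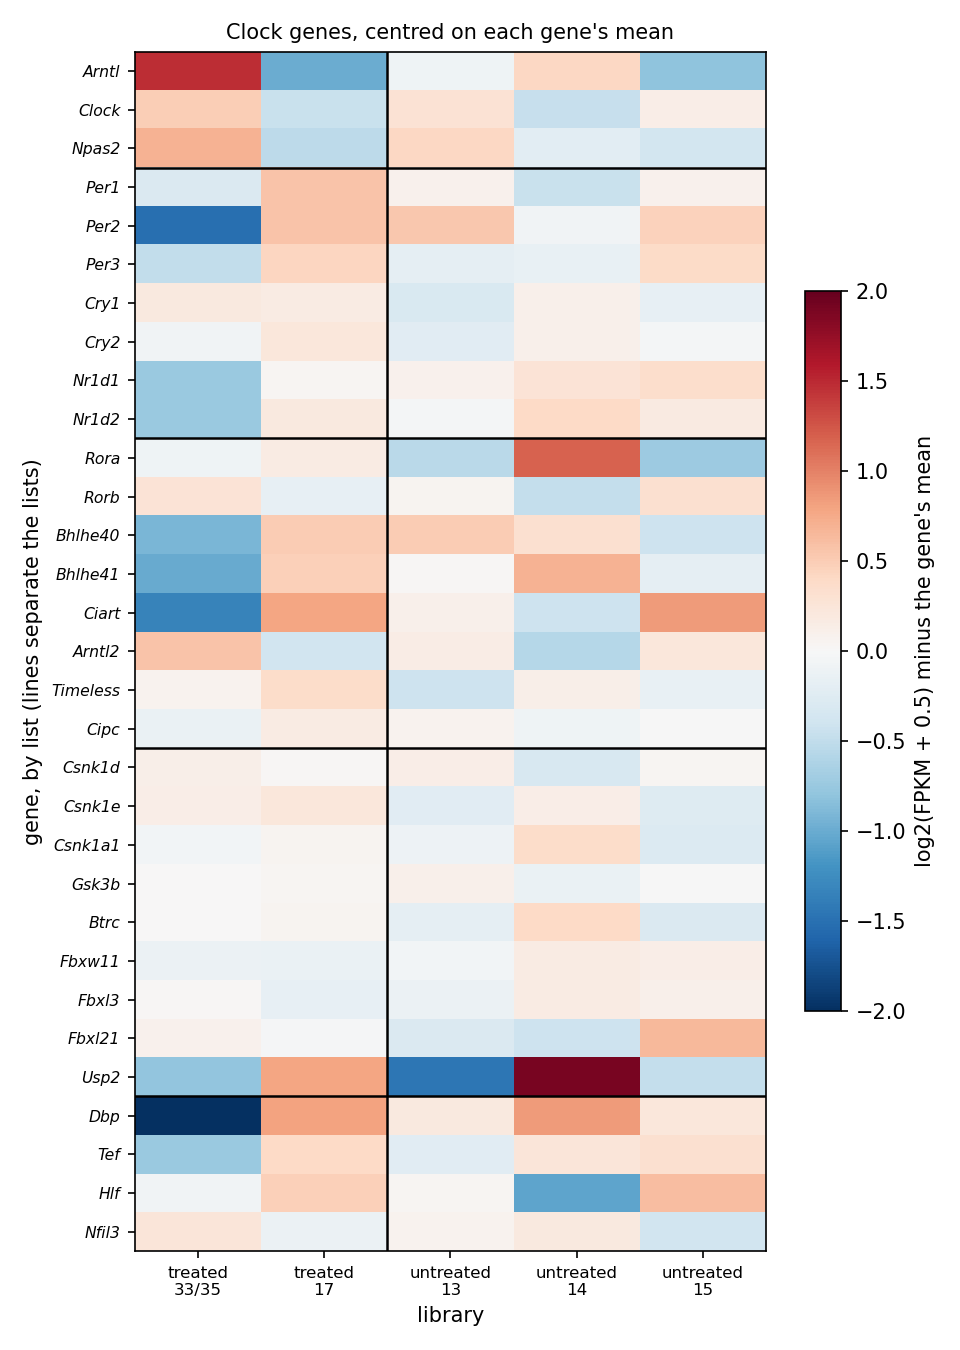
Log2(FPKM + 0.5) of the clock genes reported here by library (treated left of untreated), each row minus its mean over the 5 libraries. Rows are coloured from -2 to 2, beyond which the colour no longer deepens. Horizontal lines separate positive limb, negative limb, other loop factors, kinases and ligases (with Usp2), and D-box factors. The treated 33/35 column is red for Arntl, Clock and Npas2 and deepest blue for Dbp and Per2, while most kinase and ligase rows are pale in both treated columns.

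Of 8 other outputs of the clock, 7 were tested, and on the log2(FPKM + 0.5) scale 0 were more than 2-fold apart between the treated libraries, beside 4.52% of all genes tested. Wee1, a cell cycle kinase with E-boxes, was farthest apart, with a difference of -0.90, at 2.77 FPKM in treated 33/35, with 5.60 FPKM in treated 17, against 3.25, 1.75 and 4.19 FPKM in untreated 13, 14 and 15. Rbm3, a cold-inducible RNA-binding protein, was higher in both treated libraries than in each untreated one, with a difference of 0.22 on the log2 scale (SE 0.15; adjusted p = 1 by limma).

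The immediate early genes, with which Per1 shares inducing signals, had another pattern. In 8 of 10, both treated values lay above all untreated ones, beside 5.50% of all genes tested. Junb and Nr4a1 overlapped between the groups, and Nr4a1 was highest in untreated 14, at 71.6 FPKM. By limma 0 passed over all genes, and 7 had an unadjusted p under 0.05, beside 0.924%. This list was chosen with earlier results of these data known, so its counts are descriptions. Fosb, an AP-1 subunit, measured 18.7 FPKM in treated 33/35, with 21.1 FPKM in treated 17, against 1.42, 1.21 and 0.744 FPKM in untreated 13, 14 and 15. Klf2 measured 46.4 and 36.3 FPKM in treated 33/35 and 17, against 13.9, 10.5 and 11.9 FPKM. Per1, in contrast to Fosb and Klf2, overlapped between the groups.

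The genes whose profiles lay nearest to those of Arntl and Nr1d1 were found by Euclidean distance between centred log2(FPKM + 0.5) values over the 5 libraries, among 3479 protein-coding genes with a range of at least 1. Nearest to Arntl were 6720489N17Rik (distance 0.68), Dtx4 (0.82) and Tshr (0.84). Tshr, the thyrotropin receptor, measured 8.82 FPKM in treated 33/35, with 2.53 FPKM in treated 17, against 6.30, 5.78 and 2.60 FPKM in untreated 13, 14 and 15. Nearest to Nr1d1 were Slc10a6 (0.37), Sox18 (0.41) and Haus8 (0.47). Slc10a6 measured 0.454 FPKM in treated 33/35, with 0.879 FPKM in treated 17, against 1.06, 1.05 and 1.74 FPKM in the untreated libraries. With 5 libraries such a ranking is a description of these profiles.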

How the data were processed

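Total RNA from whole brown adipose tissue was sequenced in 6 samples, 3 treated and 3 untreated. The authors deposited 1 table per sample of FPKM values, per the file headers. The submitters' processing notes name CASAVA 1.7 and GRCm38. For the aligner, quantification program, annotation release and strand the entry is: not given in the sources used here. Symbols and coordinates came from GENCODE M21 (GRCm38), which matched 44481 of 45320 identifiers.

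The identical tables of samples 33 and 35 entered once. The 13527 genes averaging 1 FPKM or more were compared on log2(FPKM + 0.5) with limma 3.58.1 in R 4.3.3, with a variance trend, 3 residual df, two-sided, Benjamini-Hochberg adjusted over all genes tested. Fold changes on this scale understate those of low genes. Only FPKM were held, so no counting interval could be given. The fit was checked on artificial data with known differences. Tables and figures used Python 3.11.15, numpy 2.4.6, pandas 2.3.3 and matplotlib 3.10.9.

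Members and gene lists were chosen with earlier results of these data known. All 10 members were named; from other lists, the 2 genes of smallest p plus Dbp, Nfil3, Bhlhe41, Ciart, Rora, Csnk1d and Csnk1e; 1 further gene under this rule is not reported here. Thra, D930015M05Rik, Usp2, Bhlhe40, Arntl2, Hlf, Junb and Nr4a1 were named after their values were seen, as were the markers Myl1 and Th. Alternatives covered the pseudocount, filter, scaling, variance model, sample weights, gene class, threshold, identical tables and each library left out.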

Additional observations from a re-analysis of the deposited data

How the results depend on the processing

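The count of core clock genes past the limma threshold was 0 under every alternative run, and so was that of the 27 regulators and outputs (24 to 30 tested). At an unadjusted p under 0.05 there was 1 of 9 core clock genes with sample weights, beside 1447 of 13527 genes tested. There was also 1 with 33 and 35 as 2 samples, beside 434 of 13537, and 1 without untreated 14, beside 1634 of 13368. These unadjusted counts leave out the fits that kept 1 treated library, so they do not give the highest count over all fits. The count of all genes past the limma threshold was 6 of 13527. It was 2 with a pseudocount of 0.1 FPKM, 0 without a filter and 1 with a filter at a mean of 5 FPKM. It was 10 with sample weights and 0 over protein-coding genes alone. With an untreated library left out it ran from 0 to 158, the 158 without untreated 14, the library richest in muscle RNA. With 33 and 35 as 2 samples the limb gap difference between the groups was 0.77 in place of 0.37, and with a library left out it ran from -0.82 (without treated 33/35) to 1.56 (without treated 17), and from 0.18 to 0.55 with an untreated library left out. The distance between the treated libraries in limb gap, 2.38, was 3.12 with a pseudocount of 0.1 FPKM and 2.54 without Npas2, a setting chosen after the data were seen. The fold change of Arntl was -0.060 after quantile normalization, and that of Clock -0.062 after quantile normalization, -0.017 with median-of-ratios scaling and -0.20 with sample weights. With a library left out, fold changes ran from -0.82 to 1.64 for Arntl, -0.43 to 0.50 for Clock, -0.20 to 0.67 for Per1, -1.81 to 0.26 for Per2, -0.50 to 0.41 for Per3, -0.0087 to 0.28 for Cry2 and -0.92 to 0.0057 for Nr1d2. Leaving out untreated libraries alone gave -0.19 to 0.19 for Clock, 0.054 to 0.32 for Per1, -0.15 to 0.13 for Per3 and 0.050 to 0.22 for Cry2. Cry1 and Nr1d1 kept their sign in each of these fits. The cause was not tested. A library left out of the treated group leaves 1 treated library, assumed to vary like the others. No paired analysis was possible because the groups share no replicate number. Without read counts, a low value such as Npas2 in treated 17 has no known precision.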

Other observations

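Per1 is also a glucocorticoid target, and the list of 7 glucocorticoid-responsive genes that includes it did not move as one. In this list 0 genes passed the limma threshold over all genes, beside 0.0444% of all genes tested. An unadjusted p under 0.05 was found for 1, Fkbp5, beside 0.924%. Fkbp5, a cochaperone of the glucocorticoid receptor, measured 4.49 FPKM in treated 33/35, with 4.40 FPKM in treated 17. The values were 5.98, 12.8 and 9.42 FPKM in untreated 13, 14 and 15. Both treated values of Fkbp5 lay below all untreated ones, a pattern seen in 3.18% of genes tested. Sgk1, a kinase induced by the same hormone, ran the other way, at 42.7 and 54.7 FPKM in treated 33/35 and 17. It measured 34.4, 34.6 and 21.9 FPKM in untreated 13, 14 and 15. Both treated values of Sgk1 lay above all untreated ones, as for 5.50% of genes tested.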
